A study of Homo sapiens with 5 samples.

Results

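MYF5 summits that lie inside listed H3K27ac regions of both RH18 and RD are described here. They were chosen by position alone: a peak of the RH18 MYF5 list was taken when its summit fell inside a region of the RH18 H3K27ac list and also inside a region of the RD H3K27ac list. This gave 3736 of 11136 MYF5 summits, or 33.5% (95% interval 32.7 to 34.4%). The other summits lay in RH18 regions alone (2414), in RD regions alone (711) or in regions of neither line (4275). Among the summits inside RH18 regions, 60.7% were thus also inside an RD region, and among those inside RD regions, 84.0% were also inside an RH18 region. The lists themselves overlapped unequally, whether or not a region held a MYF5 summit. Of the 46408 RH18 regions, 20907 overlapped an RD region, and of the 43159 RD regions, 25884 overlapped an RH18 region. These are counts of regions with any overlap, while the shares above count summits.

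RH18 and RD are established human cell lines of rhabdomyosarcoma without a PAX fusion gene, a childhood tumour whose cells carry part of the skeletal muscle programme. The groups used were MYF5 in RH18, immunoprecipitated with the Myf-5 C-20 antibody of Santa Cruz, H3K27ac in RH18 and H3K27ac in RD, the last pair with one Active Motif antibody. All were grown in DMEM with 10% serum and carried no stated treatment. Each group was 1 library, MYF5 was mapped in RH18 alone, and MYF5 occupancy in RD was not analysed here.

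MYF5 is a basic helix-loop-helix transcription factor that marks muscle progenitors and commits cells to the muscle lineage. It binds E-box sequences as a dimer with an E protein, and shares many sites with its relative MYOD. Acetylation of lysine 27 on histone H3 is placed by p300 and CBP on nucleosomes at active enhancers and promoters. A factor bound at such an element typically occupies a short stretch of open DNA, with the acetylated nucleosomes beside it.

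The lists hold peaks and no reads. Each peak carries the fold enrichment that the authors' caller gave over its local background. The number of sequenced tags at a summit, and that background, were worked out from the deposited fold and p-value. The smallest −log10 p-value deposited was 9.09 for MYF5, 7.09 for RH18 acetylation and 5.00 for RD acetylation. A region absent from a list is therefore a region not listed at that library's own threshold. With 1 library a group there was no replicate spread and no test between groups. The intervals are exact Clopper-Pearson intervals and cover counting error only. All H3K27ac values of the host regions come from the lists that chose the summits, so they are descriptions.

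The 3736 summits lay in 3388 different RH18 regions and 3527 different RD regions. These hosts were 7.30% of the 46408 RH18 regions and 8.17% of the 43159 RD regions, and covered 4.75 Mb and 3.17 Mb. They were wide: the median width was 1146.5 bp in RH18 and 686 bp in RD, against 474 bp and 358 bp over all regions of those lists. Regions that overlapped between the lines and held no MYF5 summit had median widths of 601 bp in RH18 (n = 16446) and 412 bp in RD (n = 22132). Finding a point in both lists favours wide regions, so the width is partly set by the choice.

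The hosts also stood high in their lists. In RH18 the median host fold was 42.2, against 19.3 in overlapping regions without MYF5 and 25.9 in regions that held only summits of the RH18-alone class. The corresponding summits rested on a median of 179, 80 and 105 tags. In RD the median host fold was 12.2, against 7.65 in overlapping regions without MYF5 and 12.9 in regions that held only summits of the RD-alone class, with 159, 102 and 95 tags. The RD hosts therefore resembled the RD-alone hosts in fold but rested on more tags. The local background beneath them was also higher, at a median of 3.25 times the lowest of the list against 1.07 times. It was not particular to these hosts, since the median was 3.64 times in overlapping RD regions without MYF5 and 2.34 times over all RD regions. The part of background in these folds was not tested. Counted over the summits, 51.7% (50.04 to 53.3%) sat in an RH18 region of the top decile by fold, a class that made up 10.0% of the list, and 29.9% (28.5 to 31.4%) sat in an RD region of the top decile, also 10.0% of its list. By tags these shares were 53.8% in RH18 (top class 9.96% of the list) and 40.3% in RD (10.1%). The shares of summits and the shares of the list are unlike bases, since the latter count regions and a region can hold several summits. Top-decile shares for the other classes of summit are not given here.

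By fold, MYF5 enrichment at these summits was the lowest of the 4 classes, with wide overlap. Their fold ran from 2.41 to 52.2 with a median of 9.997 (quartiles 8.04 and 12.8). The median was 10.6 at summits in RH18 regions alone, 12.5 in RD regions alone and 12.2 in regions of neither line. The tags behind the summits were closer together, at a median of 41, against 43, 42 and 44 in those classes in the same order. The lower quartile of tags was 33 in the both-lines, RH18-alone and RD-alone classes and 35 in the neither class, so the classes overlapped widely and differed mainly at the top. The 90th percentile of tags was 71 in the both-lines class, 83 in RH18 regions alone, 85 in RD regions alone and 90.6 in neither.

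**Figure D1:**
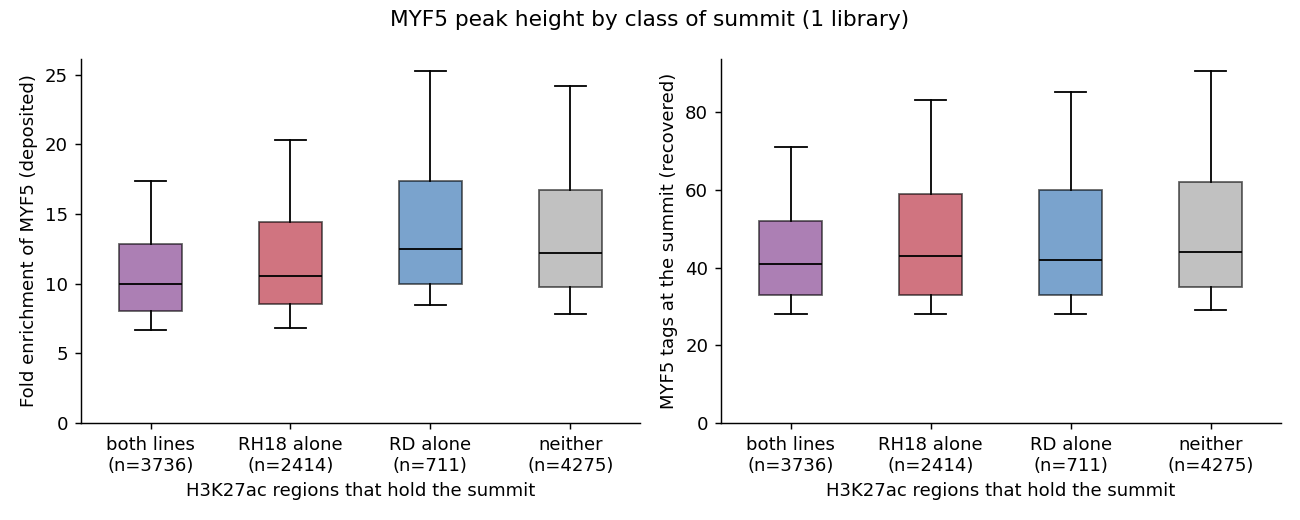
MYF5 fold enrichment (left) and recovered MYF5 tags (right) for the 4 classes of summit, with the median, a box from the lower to the upper quartile and whiskers from the 10th to the 90th percentile of peaks in 1 library. The class in regions of both lines has the lowest median fold, 9.997, while the medians of tags lie between 41 and 44.

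The local background under the MYF5 peak moved with the class. Its median was 1.54 times the lowest of the list at summits in regions of both lines, 1.46 times in RH18 regions alone, 1.005 times in RD regions alone and 1.04 times in neither. Background raised to at least 4 times the lowest was seen at 191 of the 3736 summits (5.11%), close to the 4.91% of all MYF5 summits. Where only peaks at under 1.1 times the lowest background were compared, the median fold was 11.9 on 35 tags at 1143 summits in regions of both lines, and 13.5 on 40 tags at 2234 summits in neither. The ratio of these median folds, regions of both lines over neither, was 0.880, against 0.821 over all backgrounds. The classes in regions of one line alone were not compared at this background, and the part of background in the lower fold was not tested.

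Read from the height side, 47.0% (44.1 to 50.02%) of the MYF5 summits in decile 1 by fold lay in regions of both lines, and 18.4% (16.2 to 20.8%) of those in decile 10. The share declined across most of the steps between. By tags it was nearly level, from 37.7% in decile 1 to 36.4% in decile 7, and then 31.8%, 27.6% and 20.6% in deciles 8 to 10. Of the 3736 summits, 230 (6.16%, 5.41 to 6.98%) were in the top decile of the MYF5 list by tags, a class that held 10.0% of all MYF5 peaks.

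The highest MYF5 folds among the 3736 summits illustrate how unlike the hosts could be. The 10 highest ran from 46.5 to 52.2 and rested on 144 to 243 tags. The first was on chromosome 20 (hg19, as for all positions; peak 57909529 to 57910242, summit 57909880), with a fold of 52.2 and 194 tags. Its RH18 host was only 227 bp wide, with a fold of 9.60 on 32 tags, in the 29.1th percentile of the list, while its RD host was 681 bp wide with a fold of 14.1 on 95 tags, in the 84.1th percentile. The RH18 acetylation summit lay 12 bp from the MYF5 summit and the RD one 216 bp from it.

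The second, on chromosome 22 (summit 43011380), had the same MYF5 fold and tags, in hosts of 1800 bp in RH18 (fold 56.6) and 523 bp in RD (fold 9.60). In these hosts the acetylation summits lay on opposite sides of MYF5, 581 bp below it in RH18 and 271 bp above it in RD. The third, on chromosome 1 (summit 213154656, MYF5 fold 52.1, 159 tags), had nearly coincident hosts of 2674 bp in RH18 (fold 82.6) and 2714 bp in RD (fold 33.9), both above the 99th percentile of their list by fold (99.1 and 99.6). This was the one site among the 10 with both hosts so high.

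The site on chromosome 20 at 57204436 (MYF5 fold 49.2, 150 tags) and the site on chromosome 12 at 3142858 (47.4, 145 tags) also had strongly acetylated hosts in both lines. Their RH18 folds were 98.4 and 101, and their RD folds 22.3 and 22.1. The chromosome 12 hosts were the widest of the 10, at 4396 bp in RH18 and 4416 bp in RD. At both sites the acetylation summits of the lines lay on the same side of MYF5, at 416 and 297 bp on chromosome 20 and at 278 and 269 bp on chromosome 12, RH18 given first.

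The other 5 had at least 1 host below the 90th percentile. On chromosome 8 the site at 29631099 (MYF5 fold 48.8) lay in hosts of fold 42.5 in RH18 and 27.6 in RD, and that at 96281896 (47.2, with 243 tags the most of the 10) in hosts of 28.8 and 17.0. On chromosome 7 the site at 28398037 (48.2) lay in hosts of 24.0 and 18.9, with both acetylation summits within 55 bp of MYF5. The chromosome 1 site at 244318575 (47.2) lay in hosts of 32.0 and 12.6, only 11 bp inside the edge of its RD region. The last, on chromosome 7 at 47219569 (46.5), lay 5 bp inside an RH18 region of fold 16.1 but well within an RD region of fold 37.6, at the 99.9th percentile. At this site, as at the first of the 10, the RD host ranked well above the RH18 host in its own list.

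Ranked instead by acetylation, the summits of greatest H3K27ac in both lines were not those of highest MYF5 fold. The 10 whose lower host percentile was highest (99.6 to 99.9) had MYF5 folds from 8.80 to 21.8 on 28 to 67 tags. Most of them lay above the medians of the 3736 summits, a fold of 9.997 and 41 tags. First came chromosome 2 at 3707155, in hosts of fold 116 (321 tags) in RH18 and 41.6 (246 tags) in RD, with a MYF5 fold of 16.7 on 50 tags. Its acetylation summits lay 201 and 198 bp above MYF5 in RH18 and RD. The RH18 region of highest fold in the whole list, 139 on 387 tags, followed on chromosome 20 (45985430 to 45986960). It held a pair of MYF5 summits, at 45985692 (fold 17.7) and 45986522 (12.8), and both fell into one RD region of 5628 bp and fold 38.6. A pair also lay in one region on chromosome 2 (47269875 to 47271800, RH18 fold 105, RD fold 39.4), with MYF5 folds of 9.58 and 11.5.

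The rest of these 10 were single summits. On chromosome 12 the summit at 50203243 had the highest MYF5 fold of the group, 21.8, in hosts of fold 119 in RH18 and 38.3 in RD. The acetylation summits flanked it there, 241 bp below in RH18 and 248 bp above in RD. On chromosome 14 the summits at 69100024 (MYF5 fold 12.6) and 77386914 (10.98) lay in hosts of RH18 fold 106 and 123 and RD fold 40.2 and 34.7. On chromosome 1 the summit at 182669434 (17.9) lay in hosts of 99.8 and 39.8, with acetylation summits 250 and 240 bp below it. On chromosome 11 the summit at 17673355 had the lowest MYF5 fold, 8.80, at a background 2.92 times the lowest of its list, in hosts of 95.6 and 38.1.

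Across all 3736 summits, rank correlations between MYF5 height and host acetylation were weak, and their sign turned with the measure. Spearman's rho between MYF5 tags and host tags was 0.14 in RH18 and 0.14 in RD. Between folds it was 0.12 in RH18 and 0.31 in RD. Between MYF5 fold and host tags it was -0.16 in RH18 and -0.04 in RD, and between MYF5 tags and host fold -0.09 in RH18 and 0.04 in RD. These are descriptions over summits that share libraries and, in part, host regions and local background, which enters every fold.

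MYF5 summits lay close to the acetylation summit of their host. The median distance was 159 bp in RH18 (quartiles 73 and 369 bp) and 110 bp in RD (55 and 255 bp). For comparison, summits in RH18 regions alone lay a median of 241 bp from the RH18 summit, and those in RD regions alone 192 bp from the RD summit. An RH18 acetylation summit lay within 100 bp of 34.4% (32.8 to 35.9%) of the summits in regions of both lines, against 18.6% (17.0 to 20.2%) of those in RH18 regions alone and 15.6% of all MYF5 summits. An RD acetylation summit lay within 100 bp of 46.9% (45.3 to 48.5%), against 31.2% (27.8 to 34.8%) of those in RD regions alone and 18.3% of all. Both were within 100 bp at 1027 of the summits (27.5%). Being inside the regions is part of the choice, so the share over all MYF5 summits is not an equal basis. Summits in RH18 regions alone or in RD regions alone are not an equal basis either. By the rule they had to lie outside every region of the other line. The RH18 and RD acetylation summits of the hosts in both lines were a median of 50 bp apart. How far the rule sets these distances and shares was not tested.

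In both lines the bin with most acetylation summits was the one at 50 to 99 bp from MYF5. Per bin of 50 bp, RD acetylation summits numbered 792 within 49 bp of MYF5, 942 at 50 to 99 bp and 465 at 100 to 149 bp. After a low of 282 at 150 to 199 bp they numbered 381 at 250 to 299 bp, and declined slowly beyond 400 bp. In RH18 the counts were 608, 662 and 527 in the first 3 bins and 300 at 150 to 199 bp, with no second rise of that size. Summits in RH18 regions alone had a different profile, with 215 acetylation summits per 2414 in the first bin and the most, 285, at 150 to 199 bp. These summits had to lie outside every RD region, and how far that rule sets their profile was not tested. Around summits in RD regions alone, RD acetylation summits numbered most in the first bin, with 125 per 711 against 95 at 50 to 99 bp. They too were more numerous again farther out, with 62 at 200 to 249 bp and 94 at 250 to 299 bp, so a second rise was also seen outside the both-lines class. The acetylation summit was as often at a higher as at a lower coordinate than MYF5, 1848 and 1879 times in RH18 and 1876 and 1853 times in RD.

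**Figure D2:**
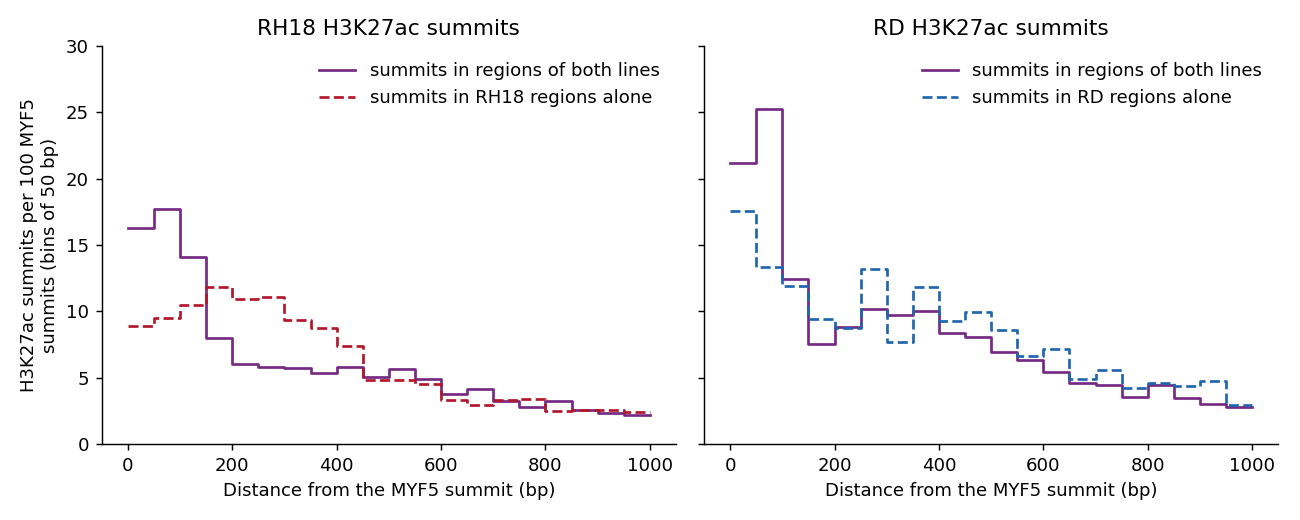
Number of H3K27ac summits per 100 MYF5 summits in bins of 50 bp, by distance from the MYF5 summit on either side, for RH18 H3K27ac (left) and RD H3K27ac (right). Solid lines are the 3736 summits in regions of both lines and dashed lines the summits in regions of the plotted line alone; the solid lines peak at 50 to 99 bp, with 17.7 per 100 in RH18 and 25.2 per 100 in RD.

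The tallest MYF5 peaks stood farther from the acetylation summit. Among the 230 in the top decile of the MYF5 list by tags, 20.4% had the RH18 summit of the host within 100 bp and 23.0% the RD summit. Among the other 3506 these shares were 35.3% and 48.5%. The median distances were 232.5 bp in RH18 and 221.5 bp in RD for the tallest, against 154 bp and 105 bp for the others. Their hosts were also wider in RD (median 945 against 708 bp) and slightly wider in RH18 (1258.5 against 1201 bp), and a wider region leaves more room for distance. From the other side, 19 of the 608 summits with an RH18 acetylation summit within 49 bp were among the tallest, against 53 of the 578 at 500 bp or more. In RD the counts were 17 of 792 and 31 of 313. The part of region width in this difference was not tested.

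The place of MYF5 within the region differed between the lines. In RH18 the summits were concentrated towards the middle: with each region cut into 10 equal bins, 974 (26.1%) lay in the 2 central bins and 292 (7.82%) in the 2 outermost. In RD they were found more often at the ends, with 672 (18.0%) in the central and 937 (25.1%) in the outermost bins. The median distance to the nearer edge was 322.5 bp in RH18 and 111 bp in RD, and 351 summits (9.40%) in RH18 but 1712 (45.8%) in RD lay under 100 bp from an edge. Of the summits in RH18 regions alone, 25.4% lay under 100 bp from an edge, and of those in RD regions alone, 45.1%. The rule bears on this comparison, since a summit in RH18 regions alone had to lie outside every RD region. For 53.3% of the both-lines summits the RD host lay wholly inside the RH18 host. The part of the rule in these shares was not tested.

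**Figure D3:**
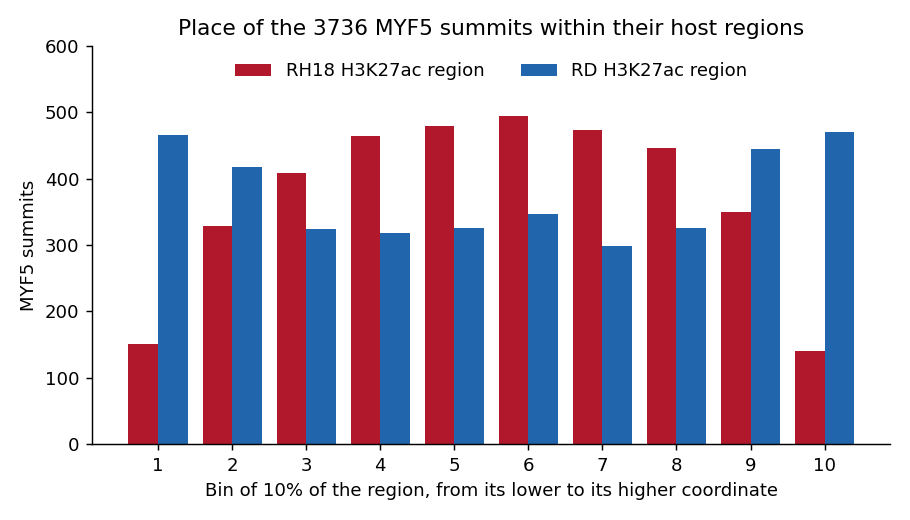
Number of the 3736 MYF5 summits in each of 10 equal bins of their host region, for the RH18 H3K27ac host (red, left bar) and the RD H3K27ac host (blue, right bar), with bins running from the lower to the higher coordinate. RH18 counts are lowest at the ends (151 and 141) and highest in the middle (495), while RD counts are highest at the ends (466 and 471).

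Region width moved with the distance to the edge. RD hosts were narrower, with a median of 721 bp over the 3736 summits against 1202 bp for RH18 hosts. When summits were split into 4 classes of host width, in the narrowest RD hosts (167 to 447 bp) 76.7% of summits lay under 100 bp from an edge, and in the widest (1199 to 7519 bp) 10.6%. The corresponding RH18 shares were 24.4% (221 to 759 bp) and 1.82% (1821 to 12689 bp). In RD hosts of 722 to 1197 bp the share was 35.5%, while in RH18 hosts of 760 to 1202 bp it was 7.49%. The part of region width, and of the different thresholds of the lists, in the difference between the lines was not tested.

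At an RD edge near MYF5 there was often another RD region across a short gap. Of the 1712 summits under 100 bp from an RD edge, 1092 (63.8%) had a next RD region within 500 bp beyond that edge. For the 2024 summits deeper inside, the share beyond the nearer edge was 47.2%. In RH18 the figures were 143 of 351 (40.7%) and 1087 of 3385 (32.1%). For summits in RD regions alone, the RD shares near an edge and deeper inside were 48.9% and 41.0%. For summits in RH18 regions alone, the RH18 shares were 41.8% and 29.4%. A higher share near an edge was thus also seen outside the both-lines class. RH18 hosts often spanned what RD listed in pieces: 1377 of the 3388 RH18 hosts (40.6%) overlapped 2 or more RD regions, up to 8, against 17.5% of the overlapping RH18 regions without MYF5. The reverse was rare, since 237 of 3527 RD hosts (6.72%) overlapped more than 1 RH18 region. The wider RH18 hosts had more room for this, and no comparison at matched width was made.

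The 2 lines placed acetylation at nearly the same point. The RH18 and RD acetylation summits of the hosts of a MYF5 summit were a median of 50 bp apart (quartiles 19 and 337 bp), and within 100 bp in 2394 of 3736 cases (64.1%, 62.5 to 65.6%). In 15959 overlapping pairs of regions without MYF5 the median was the same, 50 bp, and the share 69.4% (68.7 to 70.1%). In those pairs the RD region was the one of largest overlap, while the hosts were paired by the MYF5 summit that they held. Overlapping regions without MYF5 were also narrower than the hosts, and no comparison at matched width was made. Where both acetylation summits were more than 50 bp from MYF5, they lay on the same side of it in 2131 of 2692 cases (79.2%, 77.6 to 80.7%). Under this filter, acetylation summits within 100 bp of each other could only lie on the same side. The share is thus set in part by the filter and is no separate measure of agreement between the lines. The hosts overlapped by a median of 609.5 bp around MYF5. The RH18 host was the wider in 75.8% of cases, and the RD host lay wholly inside it in 1991 (53.3%), while the RH18 host lay wholly inside the RD host in 417 (11.2%).

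Ranks of the hosts agreed in part. Spearman's rho between the RH18 and the RD host over the 3736 summits was 0.27 by fold, 0.48 by tags and 0.42 by width. In the overlapping pairs without MYF5, which were paired by largest overlap, it was 0.23, 0.45 and 0.34 in the same order. Of the summits, 737 (19.7%) had both hosts in the top decile by fold and 1111 (29.7%) by tags. Opposite ranks were uncommon: 271 summits (7.25%) had an RH18 host in the top decile and an RD host below the median of its list by fold, and 44 (1.18%) the converse. By tags these counts were 92 and 32. Both hosts were below the median by fold for 58 summits (1.55%). Hosts below the median were few to begin with: by fold, 203 summits (5.43%) had such an RH18 host and 815 (21.8%) such an RD host. These shares limit how often opposite or low ranks could occur. The counts with both hosts in the top decile likewise depend on the separate shares, 51.7% in RH18 and 29.9% in RD by fold. By tags those were 53.8% and 40.3%. Shares over all overlapping pairs are not given here, so the counts alone are no measure of agreement between the lines.

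**Figure D4:**
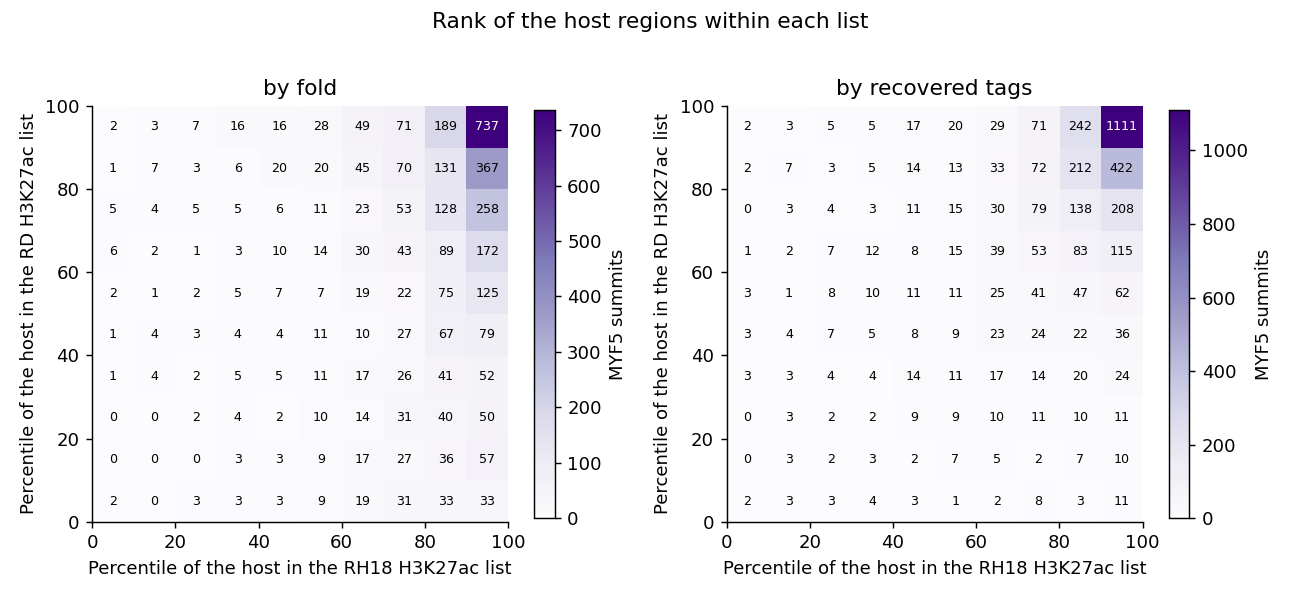
Percentile of the RH18 host (horizontal) and of the RD host (vertical) within its own H3K27ac list, by fold (left) and by recovered tags (right), with the number of the 3736 MYF5 summits printed in each square of 10 by 10 percentiles. The top right square holds 737 summits by fold and 1111 by tags.

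Most hosts held a single summit of this class. In RH18, 3090 hosts held 1, 256 held 2, 35 held 3, 6 held 4 and 1 held 5. In RD, 3332 held 1, and 195 held 2 or more. RH18 hosts with several were wider (median 1907.5 against 1091 bp), and their MYF5 peaks were of similar height (39 tags, fold 9.54) to those alone in a host (41 tags, fold 10.1). Neighbouring summits in a host were 203 to 4977 bp apart, with a median of 604.5 bp (n = 348).

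The most crowded RH18 host was on chromosome 14 (69257935 to 69263234, fold 88.5), with 5 summits of MYF5 fold 7.57 to 38.5, in 3 RD regions of which the highest had a fold of 26.6. The 6 hosts with 4 summits were led by chromosome 16 (70720177 to 70732865), which at 12689 bp was the widest host, had a fold of 112 and lay in the second-ranked RH18 domain. Next was chromosome 17 (40670196 to 40675465, fold 107), where 1 RD region held all 4. On chromosome 21 (28337330 to 28340469, fold 96.9) MYF5 folds ran from 4.22 to 15.05, at a median background of 3.90 times the lowest. The others were on chromosome 11 (10323669 to 10329958, fold 70.0), chromosome 12 (6641086 to 6646150, fold 66.8) and chromosome 19 (11248004 to 11256490, fold 55.5). In each of these 7 regions, MYF5 had several separate summits within one acetylated block. The tallest MYF5 peak rested on 117 tags on chromosome 14, 101 on chromosome 19 and 91 on chromosome 12. It rested on 90 tags on chromosome 21, 77 on chromosome 11 and 38 on chromosome 17. On chromosome 16 no MYF5 peak exceeded a fold of 12.8 or 38 tags, although acetylation was at the 99.9th percentile.

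Wider neighbourhoods were crowded to about the same degree as for summits in RH18 regions alone. Another MYF5 summit of any class lay within 12.5 kb of 47.0% (45.4 to 48.6%) of the summits in regions of both lines, against 48.9% in RH18 regions alone, 38.0% in RD regions alone and 34.0% in neither. When H3K27ac regions within 12.5 kb were joined and domains ranked by summed fold times width, 787 of the 3736 (21.1%) lay in one of the top 500 domains of RH18, 605 (16.2%) in one of RD and 390 (10.4%) in both. The share in top RH18 domains was 23.6% for summits in RH18 regions alone, and the share in top RD domains was 22.6% for those in RD regions alone. Thus 2734 (73.2%, 71.7 to 74.6%) lay outside the top domains of both lines. In all there were 18842 domains in RH18 and 16671 in RD. Shares in top domains over all MYF5 summits and over all H3K27ac regions are not given here. Whether the shares of this class are high or low was therefore not tested.

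The class was spread over 23 chromosomes but unevenly. On chromosome 19 it took 271 of 552 MYF5 summits (49.1%, 44.8 to 53.4%), followed by 37.9% on chromosome 17, 37.8% on chromosome 1 and 37.3% on chromosome 11. The lowest shares were 22.0% on chromosome 13 (16.9 to 27.8%) and 22.7% on chromosome 4 (15.7 to 30.9%). Only chromosome 19 had an interval clear of those of all others. Its summits had a lower median fold than those elsewhere (8.80 against 10.2), slightly more tags (45 against 40) and a higher local background (2.26 against 1.49 times the lowest). The part of background in this share was not tested.

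**Figure D5:**
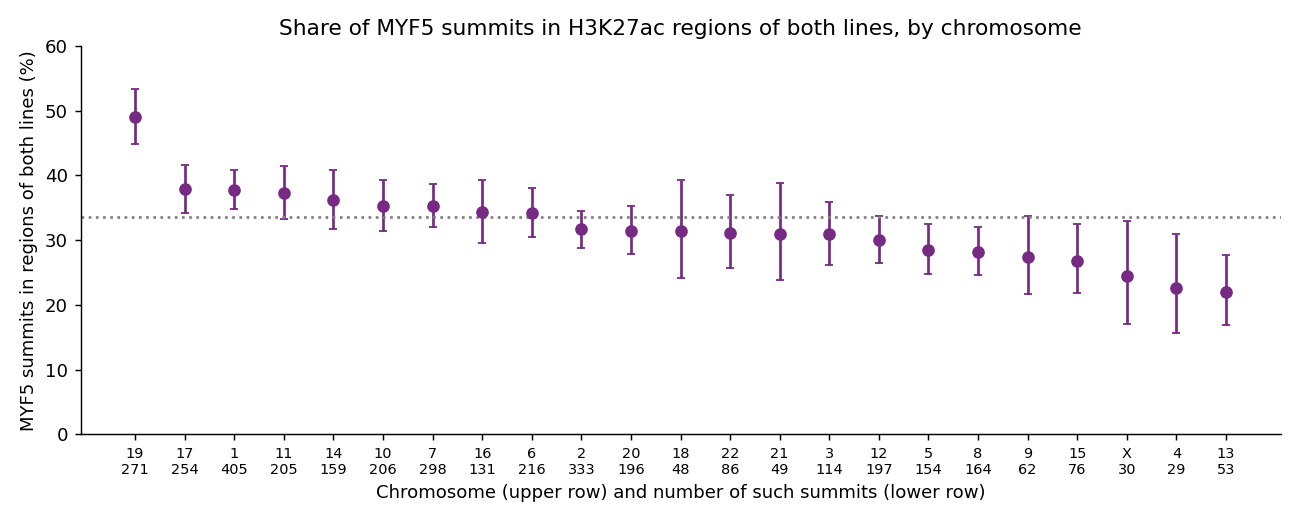
Percent of MYF5 summits that lay in H3K27ac regions of both lines, by chromosome in order of the share, with exact 95% intervals and the number of such summits below each chromosome. Chromosome 19 stands at 49.1%, the other chromosomes lie between 22.0 and 37.9%, and the dotted line is the share over all summits, 33.5%.

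By megabase, most summits of the class were found on chromosome 6 from 26000001 to 27000000, with 28 of the 50 MYF5 summits there. These were tall (median fold 18.2, 65 tags) on a low background (1.04 times the lowest). The next megabase held 15 of 48. On chromosome 11, from 65000001, 20 of 25 MYF5 summits were in regions of both lines, and on chromosome 1, from 156000001, 18 of 23. In these last 2 megabases the heights were ordinary, with median folds of 10.2 and 10.3. Chromosome 1 from 235000001 had the highest share among the 15 megabases with most such summits, 13 of 15. The choice of these megabases followed from their values.

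The line between the classes was fine. Among the 3736 summits, 1855 lay under 100 bp from an edge in at least 1 line, and 62 lay under 5 bp from one. The nearest were at the outermost base of an RD region, such as chromosome 1 at 16767292 (MYF5 fold 8.25, 27 tags), chromosome 11 at 119231881 (13.5, 40 tags), chromosome 13 at 111774531 (13.8, 41 tags), chromosome 16 at 67427037 (7.89, 27 tags) and chromosome 17 at 19290735 (11.5, 34 tags). Just outside, summits in RH18 regions alone missed an RD region by 1 bp on chromosome 1 at 31769909 (8.88, 39 tags) and 32671351 (9.25, 29 tags), chromosome 11 at 112655481 (9.90, 29 tags), chromosome 12 at 49412710 (14.8, 44 tags) and chromosome 15 at 35085414 (8.93, 26 tags). Many summits tied at these distances, and ties were broken by chromosome name and position, so those named are examples. Among these examples, MYF5 heights on the 2 sides of the line overlapped. Of the 2414 summits in RH18 regions alone, 842 (34.9%) lay within 100 bp of an RD region, and of the 711 in RD regions alone, 141 (19.8%) lay within 100 bp of an RH18 region.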

How the data were processed

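Peak lists of 3 ChIP-seq libraries were used (MYF5 and H3K27ac in RH18, H3K27ac in RD), with 1 list and 1 library per group; the input samples had no list here. Per the submitters' processing notes, BWA 0.7.10, MACS2 2.1.0 and build hg19 were used, with no role or threshold given. The deposited lists give the position and summit of every peak with the authors' own fold enrichment (a ratio over local background), −log10 p-value and −log10 q-value. Numbering in the lists skips 39, 70 and 49 entries. Total reads are not given in the sources used here.

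Summits were assigned to regions by position, and coordinates are 1-based. Pileup and background were solved from fold and p-value under the MACS2 formulas, and tags were whole within 0.1 tag for 100.0% of peaks in each list, at 0.658, 0.832 and 0.273 pileup units per tag in MYF5, RH18 and RD. Several solutions existed for 18.8%, 7.80% and 45.5% of peaks, of which the nearest to whole tags was kept. Folds of the lists are not on one scale, so ranks within a list were compared. The steps were checked on data simulated under the same formulas, over a narrower range of backgrounds than the lists hold. Recovery at the highest backgrounds was therefore not checked. Tools were scipy 1.17.1, pandas 2.3.3 and numpy 2.4.6 under Python 3.11.15, with figures from matplotlib 3.10.9.

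Named summits were the 10 of highest MYF5 fold, the 10 whose lower host percentile by H3K27ac fold was highest, hosts with most summits (all ties at 4), and the 5 nearest to an edge on either side of the rule. Ties in distance to an edge were broken by chromosome name and position. The class and these rules were chosen with earlier results of these data known. Sequence under the summits and gene annotation of hg19 were not used here, so E-box and gene-start shares were not run.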

Additional observations from a re-analysis of the deposited data

How the results depend on the processing

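Of 17 alternatives, 12 moved the value and 5 did not; no ratio crossed 1 and no correlation changed sign. The share of MYF5 summits in regions of both lines (33.5%) was 31.9% with H3K27ac regions of −log10 q of at least 10, 26.5% among the top 5000 MYF5 peaks by −log10 p-value, 16.9% with summits at least 100 bp inside both regions, 47.0% where the peak need only overlap a region of each line, and 54.7% with summits within 500 bp of both. The ratio of median MYF5 fold, regions of both lines over neither, was 0.821 as reported, 0.932 by tags and 0.880 at under 1.1 times the lowest background. The median distance to the acetylation summit was 137 bp in RH18 and 101 bp in RD for the 3047 summits alone in both hosts. The rank correlation of RH18 with RD hosts (0.27) was 0.48 by tags, 0.42 by width and 0.26 with 1 value per pair of hosts. For the share, the settings with 500 bp and without raised background, and for the ratio of folds the setting at under 1.1 times the lowest background, were chosen after seeing the data. The cause of the changes was not tested, except that a margin inside or outside the edge changes the count by its own construction. No paired analysis was possible because each group held 1 library, and for the same reason no replicate was left out. Other settings for sequence motifs and gene starts were not run. The lists end at different thresholds, which limits what an absent region shows.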
